A study of Mus musculus with 96 samples.

Results

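The insulin-like growth factor (IGF) family was described here through 9 genes in mouse embryonic neural tube: the growth factor genes Igf1 and Igf2, the receptor genes Igf1r and Igf2r, the binding protein genes Igfbp2, Igfbp3, Igfbp4 and Igfbp5, and the related gene Igfbpl1. They are 9 of the 22422 genes held in the deposited count table, and all 9 had enough counts to be tested in every comparison. The family was chosen by its names and with results of these libraries in view, selected on the lower Igfbp5 footprint CPM of the mutant. That value is therefore given as a description, and it supports no other statement. All samples were neural tube from E11.5 embryos, a stage of mid-gestation. Embryos of the C3HeB strain heterozygous for the Xs-J allele of Eif3c (C3HeB/Eif3cXs-J/+) were compared with wild-type C3HeB embryos, and no other allele or agent distinguished the groups. The mutants keep a wild-type copy of Eif3c, which encodes a subunit of the translation initiation factor eIF3, and the labels name no tissue limit to the allele. For each genotype, cells dissociated with papain from the neural tubes of pooled littermates were divided between RNA-seq of poly(A) RNA and ribosome profiling. There, nuclease leaves only the stretches of mRNA covered by ribosomes, and these footprints are sequenced. With 3 pools of each genotype this gave 12 libraries, whose 2 sequencing runs of 4 lanes each were summed. Whether the pools of one genotype are different litters is not stated, and the p-values below therefore reflect pool-to-pool spread, which may be technical.

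IGF1 and IGF2 are secreted peptides that promote growth and survival of cells in the embryo. Both act through the receptor tyrosine kinase IGF1R, which signals by way of PI3 kinase and AKT and by way of MAP kinase. IGF2R, the cation-independent mannose 6-phosphate receptor, carries IGF2 to lysosomes for breakdown and also sorts lysosomal enzymes. In the mouse Igf2 is expressed from the paternal and Igf2r from the maternal allele in most tissues, and the maternal Igf2r allele thus restrains growth. IGF-binding proteins hold the factors in the extracellular space, prolong their life and either block or present them to the receptor, and proteases such as pappalysin (Pappa) release the factors by cutting binding proteins. IGFBPL1 carries an IGFBP-like domain and is known from developing neurons.

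The counts cover the coding sequence of 1 transcript per gene without its first 15 and last 5 codons, and positions are those of mm10. Igfbp2 (chr1:72824503-72852474, plus strand) and Igfbp5 (chr1:72857932-72874884, minus strand) are neighbours, with 5457 bases between their ends. Igfbp3 (chr11:7206086-7213923, minus strand) and Igfbp4 (chr11:99041244-99054392, plus strand) lie on chromosome 11, and Igfbpl1 (chr4:45809468-45826923, minus strand) on chromosome 4. Igf1 (chr10:87858265-87937042, plus strand), Igf2 (chr7:142650766-142666816, minus strand), Igf1r (chr7:67952827-68233668, plus strand) and Igf2r (chr17:12682406-12769664, minus strand) complete the set. The gene Gm49394, annotated as coding on the same strand, covers 76.2% of the exonic bases of the Igf2 transcript used, so the reads of Igf2 and Gm49394 cannot be told apart. No exon of another annotated gene overlaps the transcripts of the other 8 genes.

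Igfbp2, Igfbp3, Igfbp4 and Igfbp5 share a run of cysteines in the IGF-binding domain, and the coding bases of that run are shown to set them side by side. A search of 21501 mouse coding sequences, in frame, for the run of codons glycine, cysteine, any, cysteine, cysteine, any, any, cysteine found it in 22 of them (0.102%). These include Igfbp1, the 4 genes below and Ccn1 to Ccn6, matricellular protein genes with an IGFBP-like domain, but also others such as Lmx1b, Dnajc5g, Krtap28-10 and Krtap28-13, so the run is not particular to the family. The letters of Igfbpl1 did not match in the transcript used. Capitals mark the cysteine codons, and each run is written 5′ to 3′ on the coding strand, from the GENCODE vM21 transcript.
Igfbp2: ggcTGCggcTGCTGCtccgtgTGC
Igfbp3: ggcTGCggcTGCTGCctgactTGC
Igfbp4: ggcTGCggtTGTTGCgccactTGC
Igfbp5: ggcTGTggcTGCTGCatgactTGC
The runs start at codon 67 of Igfbp2, codon 68 of Igfbp3, codon 52 of Igfbp4 and codon 51 of Igfbp5, and the genes therefore share the codon pattern although their bases differ.

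Libraries held 9.57M to 13.1M coding counts (M, counts in units of 1000000) in mutant RNA and 7.20M to 13.1M in wild-type RNA, and 11.3M to 14.8M in mutant footprints and 17.3M to 59.2M in wild-type footprints. Eif3c lay lower in all 6 mutant libraries, with 296 ± 5.88 CPM in mutant RNA and 496 ± 22.1 CPM in wild-type RNA (SD, n = 3 each), where CPM are coding counts per 1000000, scaled by the trimmed mean of M-values (TMM). Its footprints were 379 ± 23.9 CPM in the mutant and 748 ± 10.9 CPM in wild type. All 9 pan-neuronal and all 9 neural progenitor markers were above 0 in every library, as were all 10 mesenchyme, all 9 endothelial and all 11 erythroid markers, so the neural tube samples also held RNA typical of other cells. Mutant pool 1 stood apart in erythroid and endothelial markers. Its summed erythroid markers reached 6499 CPM in RNA, against 2752 to 3439 CPM in the other 5 RNA libraries, and its endothelial markers 539 CPM, against 322 to 374 CPM. In mutant footprint pool 2, 2.87% of transcript counts lay in 3′ untranslated regions, against 1.45% to 1.67% in the other 5 footprint libraries.

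In wild-type neural tube Igfbpl1 stood highest of the 9 genes, and Igfbp3 and the growth factor Igf1 stood lowest. Per kilobase of counted coding sequence, wild-type RNA was 504 ± 9.38 CPM for Igfbpl1, 288 ± 31.4 for Igfbp2, 193 ± 30.9 for Igf2, 156 ± 11.1 for Igfbp4 and 109 ± 7.13 for Igfbp5 (SD, n = 3 pools). It was 68.0 ± 3.84 CPM per kilobase for Igf1r, 45.0 ± 2.00 for Igf2r, 9.72 ± 1.43 for Igfbp3 and 6.53 ± 1.52 for Igf1. The wild-type pools of neighbours in this order did not overlap except those of Igf2 and Igfbp4. Igf2 was thus well above Igf1 among the ligands, and the receptors lay between the abundant and the scarce binding proteins. In wild-type footprints the order was Igfbpl1 (746 ± 7.14 CPM per kilobase), Igfbp2 (472 ± 22.5), Igf2 (446 ± 7.77), Igfbp5 (280 ± 8.61), Igfbp4 (250 ± 20.0), Igf2r (74.2 ± 3.27), Igf1r (65.3 ± 1.62), Igfbp3 (13.5 ± 1.06) and Igf1 (11.7 ± 2.67). There the pools of Igf2 overlapped those of Igfbp2, and the pools of Igf1 those of Igfbp3.

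**Figure D1:**
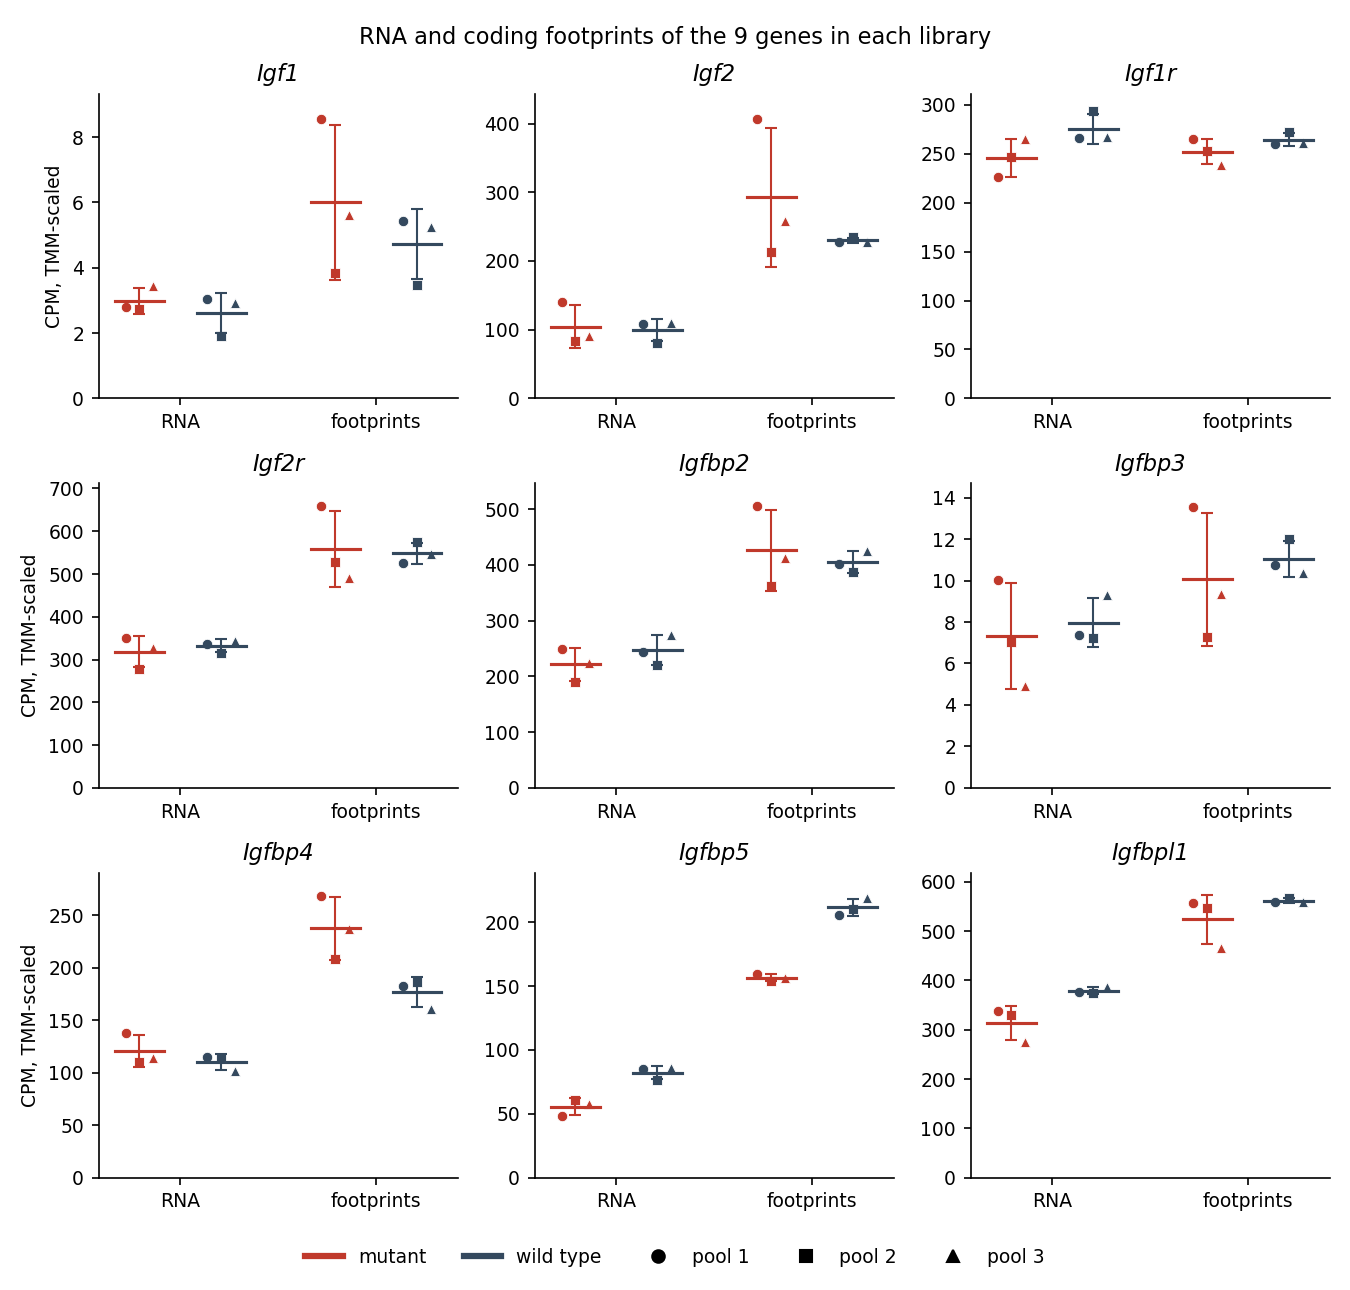
RNA and coding footprints of the 9 genes in CPM (y axis from 0), with 1 point per library, the mean as a bar and the SD over 3 pools, mutant in red left of wild type in blue. Igfbp5 lies lower in all 3 mutant pools in RNA and in footprints, Igfbp4 footprints lie at 208 to 268 CPM in mutants above 160 to 186 CPM in wild type, and mutant pool 1 (circles) is the highest footprint library of Igf1, Igf2, Igf2r, Igfbp2, Igfbp3 and Igfbp4.

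In RNA, Igfbp5 fell in the mutant and no other family gene passed the test, which was edgeR's quasi-likelihood test with adjustment over all 13406 genes tested. Igfbp5, whose product binds both factors and the extracellular matrix, had 47.9, 60.8 and 57.9 CPM in mutant pools 1, 2 and 3, against 84.9, 76.1 and 85.9 CPM in wild-type pools. Every mutant pool was below every wild-type pool. The log2 change was -0.57 ± 0.09 (SE, edgeR adjusted p = 0.0365), and Igfbp5 was the only family gene among the 22 genes lower in RNA, which make up 0.164% of genes tested. RNA and footprints came from the same cells, so this call is not independent of the footprint value that brought the family here. It did not pass without wild-type pool 1, 2 or 3 (edgeR adjusted p = 0.197, 0.180 and 0.25), without mutant pool 3 (0.168), or with offsets for the GC content of coding sequences (0.117).

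The other RNA differences among the binding proteins were smaller and did not pass. Igfbpl1 had 338, 329 and 274 CPM in the mutant pools, against 376, 375 and 388 CPM in wild type. Those groups did not overlap, with a log2 difference of -0.27 ± 0.08 (edgeR adjusted p = 0.109), and the difference passed with DESeq2 (adjusted p = 0.0291) and without mutant pool 2 (edgeR adjusted p = 0.0248). Igfbp4, a binding protein cut by pappalysin, averaged 120.3 ± 15.0 CPM in mutants and 110.2 ± 7.81 CPM in wild type (0.13 ± 0.09, edgeR adjusted p = 0.493). Igfbp2, the neighbour of Igfbp5, averaged 222 ± 29.5 CPM in mutants and 247 ± 27.0 CPM in wild type (-0.15 ± 0.10, edgeR adjusted p = 0.458). Igfbp3 rested on 50 to 133 counts per mutant library and 63 to 94 per wild-type library, with a log2 difference of -0.09 ± 0.24. The pools of Igfbp2, Igfbp3 and Igfbp4 overlapped between genotypes.

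The ligands and receptors overlapped or nearly met between genotypes in RNA. Igf2 had 140.1, 83.2 and 90.3 CPM in mutant pools and 108, 81.0 and 109 CPM in wild-type pools. The high mutant value is that of pool 1, and the log2 difference was 0.09 ± 0.17, turning to -0.18 without that pool. Igf1 had 26 to 37 counts per mutant library and 21 to 26 per wild-type library, too few for more than a wide estimate (0.22 ± 0.26). Igf1r, the signalling receptor, had 226, 247 and 265 CPM in mutants, against 266, 293 and 267 CPM in wild type. Its mutant pools were lower without overlap, by a small margin at the closest pair (-0.17 ± 0.07, edgeR adjusted p = 0.265). Igf2r averaged 319 ± 36.7 CPM in mutants and 332 ± 14.8 CPM in wild type (-0.06 ± 0.08). In all, 3 of 9 genes (Igfbp5, Igfbpl1 and Igf1r) had mutant pools entirely below wild type in RNA and none entirely above. Of genes tested, 11.0% lay below and 11.1% above. The tally includes Igfbp5, whose RNA is not independent of the footprints on which the family was selected, so nothing is read from it.

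**Figure D2:**
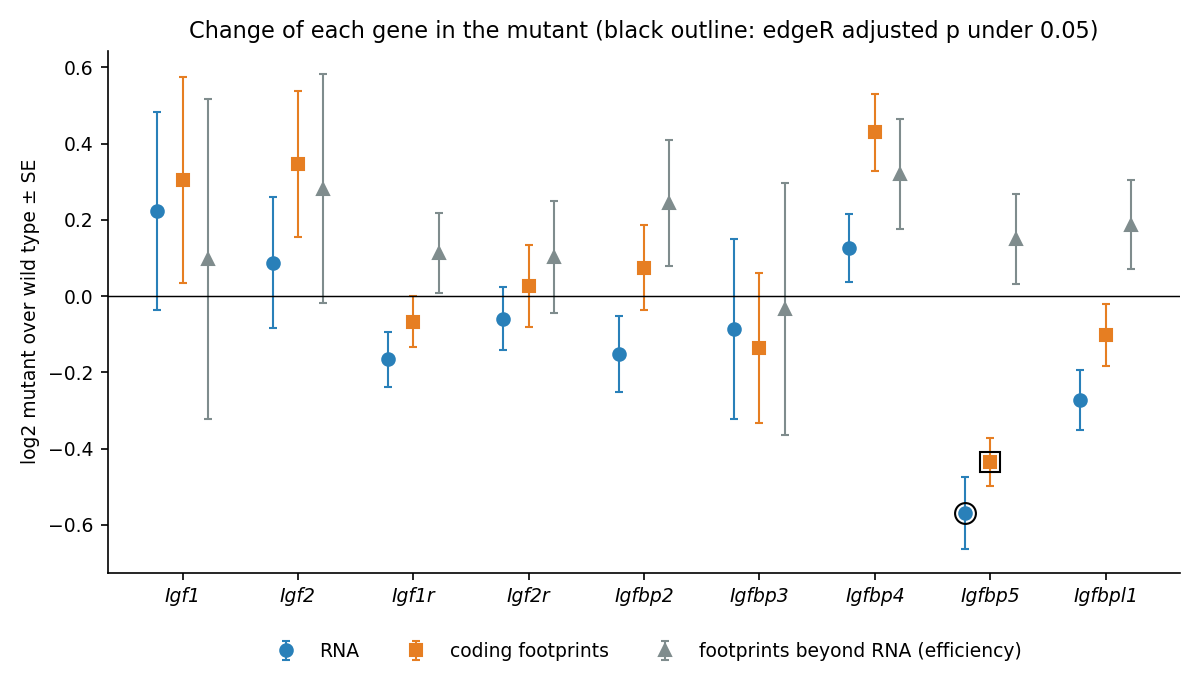
Log2 change in the mutant over wild type with its standard error (y axis) for each gene (x axis), in RNA (circles), coding footprints (squares) and footprints beyond RNA (triangles), from edgeR. Igfbp5 is the lowest in RNA (-0.57) and footprints (-0.44), outlined as past the threshold, and Igfbp4 is the highest in footprints (0.43).

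In footprints Igfbp4 lay higher in all mutant pools without passing the test, and of the 9 genes none but the selected Igfbp5 passed. Igfbp5 had 159.6, 154 and 157 CPM in mutant pools, against 206, 211 and 219 CPM in wild type. Its mutant pools lay close together and all below wild type, with a log2 change of -0.44 ± 0.06. It was 1 of the 4 genes called lower in footprints, 0.0298% of 13423 tested, and since that call led to the family's choice nothing is read from it. Igfbp4 had 268, 208 and 237 CPM in mutant pools and 183, 186 and 160 CPM in wild-type pools. Every mutant pool was higher, and the log2 difference of 0.43 ± 0.10 did not pass (edgeR adjusted p = 0.0853), and it was 0.25 with GC offsets, although it passed with DESeq2 (adjusted p = 0.00782) and without mutant pool 2 (edgeR adjusted p = 0.00837). Per kilobase, Igfbp4 footprints were 1.62 ± 0.176 times those of Igfbp5 in mutants and 0.895 ± 0.0950 times in wild type. That ratio contains the Igfbp5 footprints on which the family was selected, so it is a description and nothing is read from it. In RNA that ratio was 2.37 ± 0.615 in mutants and 1.44 ± 0.173 in wild type.

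Igfbpl1, the most abundant, had 557, 548 and 466 CPM in mutants and 559, 568 and 558 CPM in wild type, below wild type in every mutant pool but by little in pools 1 and 2 (-0.10 ± 0.08, edgeR adjusted p = 0.468). Leaving aside Igfbp5, 1 gene lay below without overlap (Igfbpl1) and 1 above (Igfbp4), where 14.8% of genes tested lay below and 14.4% above.

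Igf2 footprints were 406, 213 and 259 CPM in mutant pools and 227, 235 and 228 CPM in wild-type pools. Wild-type pools lay close together while the mutants spread on either side, with a log2 difference of 0.35 ± 0.19 (edgeR adjusted p = 0.305). Leaving out mutant pool 1 gave 0.04, and leaving out mutant pool 2 gave 0.52, which passed (edgeR adjusted p = 0.0453). Igf2r averaged 559 ± 89.1 CPM in mutants and 549 ± 24.2 CPM in wild type (0.03 ± 0.11), and Igfbp2 averaged 426 ± 72.4 CPM in mutants and 405 ± 19.3 CPM in wild type (0.07 ± 0.11). Both had their highest value in mutant pool 1, at 659 CPM for Igf2r and 505 CPM for Igfbp2. Igf1r averaged 252 ± 13.2 CPM in mutants and 264 ± 6.56 CPM in wild type (-0.07 ± 0.07). Igfbp3 (-0.14 ± 0.20) and Igf1 (0.30 ± 0.27) also did not pass.

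In footprints per mRNA no family gene passed the test of the genotype and assay interaction. With edgeR that test called 0 of 13877 genes (0.0% of those tested, with 1367 at an unadjusted p under 0.05). Since it called no gene at all, it does not show that footprints per mRNA were unchanged. With the pool as a block, as RNA and footprints of a pool share their cells, 113 genes passed (0.814%), none of them in the family, and DESeq2 called 20. Igfbp4 had the largest difference of the 9, 0.32 ± 0.15 (edgeR adjusted p = 0.497, and 0.0610 with the pool as a block). Its log2 ratio of footprint CPM to RNA CPM was 0.96, 0.92 and 1.06 in mutant pools, against 0.66, 0.70 and 0.66 in wild-type pools. Mutant pools were higher without overlap for Igfbp4, Igfbp2 and Igfbpl1, 3 of 9 genes, where 10.6% of genes tested did so. Igfbp5, lower in both assays, had a difference of 0.15 ± 0.12, and the ratio was 1.73, 1.33 and 1.43 in mutant pools and 1.27, 1.46 and 1.34 in wild-type pools, which overlap. With GC offsets the difference was 0.10 ± 0.13 for Igfbp4, -0.0030 for Igfbp2, -0.063 for Igfbpl1 and -0.017 for Igfbp5.

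Within wild type, 8 of the 9 mRNAs carried more footprints than the typical gene, where 71.8% of genes tested differed from it, 35.5% higher and 36.3% lower. TMM scaling centres the libraries, so a log2 value of 0 stands for the typical gene. Igfbp5 had the highest value of the 9, 1.46 ± 0.08 (edgeR adjusted p = 1.25e-09), above 99.1% of genes tested. Its wild-type footprints entered the comparison on which the family was selected, so its value and its place among the 8 are a description. Igf2 followed at 1.31 ± 0.22 (edgeR adjusted p = 6.61e-05), above 98.4%, and Igf1 at 1.02 ± 0.29 (edgeR adjusted p = 0.00601). Both ligands therefore lay in the upper range. Igf2r stood at 0.82 ± 0.10, Igfbp2 at 0.81 ± 0.12, Igfbp4 at 0.77 ± 0.10, Igfbpl1 at 0.66 ± 0.08 and Igfbp3 at 0.58 ± 0.23 (edgeR adjusted p from 4.16e-06 to 0.0345). Igf1r did not pass, at 0.04 ± 0.07 (edgeR adjusted p = 0.680). Igfbp3 passed in 13 of 16 alternative ways of processing, and lost the call without wild-type pool 1 or 2 (edgeR adjusted p = 0.138 and 0.223), among others. Igf1, with 21 to 26 counts per wild-type RNA library, passed in 15 of 16. Poly(A) selection, size selection and GC content differ between the assays, and their part in these levels was not tested beyond GC offsets, with which the same 8 genes passed.

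**Figure D3:**
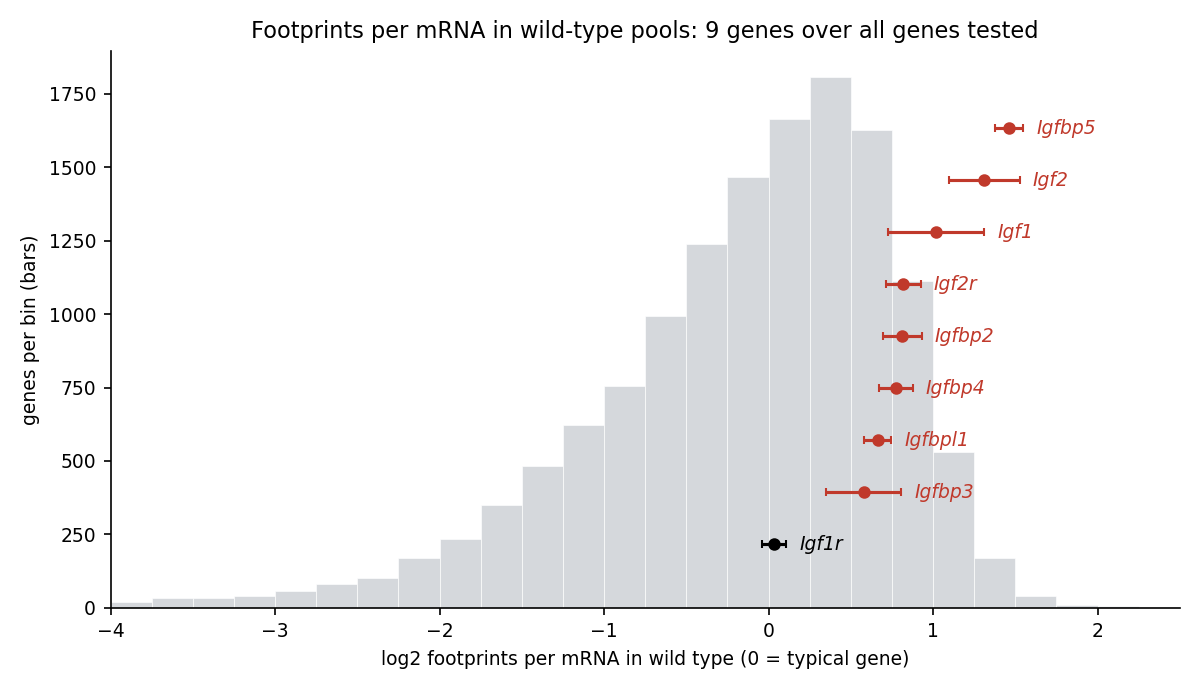
Log2 footprints per mRNA in wild type (x axis, 0 for the typical gene), with all genes tested as grey bars (y axis, genes per bin) and the 9 genes as points with standard errors, set at arbitrary heights, red where edgeR's adjusted p was under 0.05. The 240 genes outside -4 to 2.5 are not drawn. Igfbp5 (1.46) and Igf2 (1.31) lie furthest right and Igf1r (0.04) at the middle.

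The 5′ untranslated regions (leaders) of the family differ in length and in their share of footprints. Igfbp5 has a leader of 745 bases, against a median of 175 bases among 12808 genes, and Igf2 one of 1099 bases in the transcript used. RNA density per base in that Igf2 leader was 20.7 ± 2.53% of coding density in mutants and 20.1 ± 1.60% in wild type. It may therefore not stand for most Igf2 mRNA. Neither the Igfbp5 leader nor this Igf2 leader contains an ATG. Of 510 genes with leaders of at least 700 bases, 17 (3.33%) contain none, and the median is 7. Igf1 has 4 upstream ATGs, Igfbp4 has 1 and the other genes none. Igfbp5 had the highest leader share of footprints of the 9. That share was 32.5%, 37.2% and 34.8% of transcript footprints in mutant pools, against 40.2%, 38.3% and 37.2% in wild-type pools. The groups nearly touched, and few of these counts came from reads across the start codon. At least 93.0% of leader footprints in mutants and 94.5% in wild type lay wholly inside the leader. In RNA, leader density per base relative to coding sequence was 80.0 ± 6.92% in mutants and 78.1 ± 6.38% in wild type for Igfbp5. In footprints its leader density was 59.2 ± 8.93% in mutants and 67.2 ± 4.13% in wild type. The wild-type median over 11649 genes was 123%, and 20.3% of them lay below Igfbp5, so its high share goes with a long leader and not with a high density per base.

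Igfbp4 and Igfbpl1 differed in the other direction. Igfbp4 leader shares were 19.7%, 22.0% and 19.5% in mutants and 13.7%, 15.6% and 15.4% in wild type, higher in every mutant pool. Igfbpl1 shares were 10.6%, 13.2% and 9.67% in mutants and 6.32%, 7.87% and 8.12% in wild type, again higher throughout. The Igfbpl1 leader has 130 bases, and its counts cannot be separated from reads that cross into coding sequence. Igfbp2 (14.5 ± 0.755% in mutants and 13.7 ± 0.196% in wild type), Igf2, Igf2r and Igf1 overlapped between genotypes. The exact two-sided permutation test of 3 against 3 pools cannot go below 0.1, which is the value for Igfbp4, Igfbp5, Igfbpl1, Igf1r and Igfbp3. In all, 2 of 9 genes had higher shares without overlap, where 24.7% of 11418 genes did, and 3 had lower shares, where 3.63% did. Of these 3, Igfbp3 and Igf1r rest on few leader counts. Those of Igfbp3 were 15, 3 and 9 in mutant pools, against 64, 22 and 45 in wild-type pools. The share of Igfbp5 contains the footprints on which the family was selected, so nothing is read from the tally. With the second sequencing run alone, the groups of Igfbp4 and Igfbpl1 still did not overlap and those of Igfbp5, Igf1r and Igfbp3 did. Leader shares over all genes were 15.5%, 13.1% and 15.0% in mutant footprint libraries and 13.0% to 13.1% in wild-type ones.

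A test of leader against coding footprints across genes, added after the values were seen, set these shares against the typical gene. Igf1r passed, at -1.21 ± 0.28 on the log2 scale (edgeR adjusted p = 0.0164), where 5.98% of 11286 genes passed. It rests on 8, 11 and 15 leader counts in mutant pools, against 110, 40 and 45 in wild-type pools, and on a leader of 32 bases, so that all of them may be reads that cross the start codon. Igfbp3 (-0.96 ± 0.33, edgeR adjusted p = 0.0834), Igfbp5 (-0.43 ± 0.16, edgeR adjusted p = 0.101), Igfbpl1 (0.48 ± 0.18, edgeR adjusted p = 0.106) and Igfbp4 (0.32 ± 0.15, edgeR adjusted p = 0.201) did not pass. In mutant footprint pool 2 the 3′ share of Igf1r was 12.4%, against 1.57% and 1.17% in the other mutant pools and 0.718% to 0.851% in wild type.

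**Figure D4:**
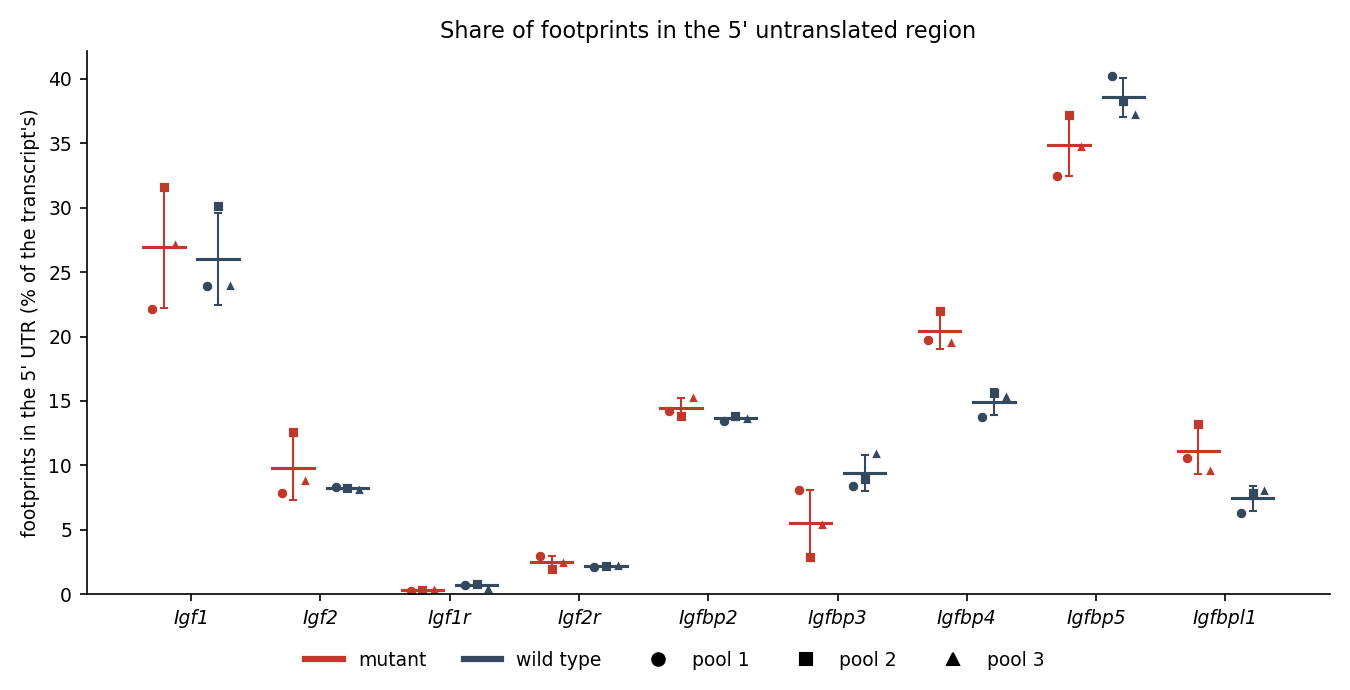
Footprints in the 5′ untranslated region as a percentage of all footprints of the transcript (y axis from 0) in each pool, with the mean and SD, mutant in red left of wild type in blue. Igfbp5 has the highest shares, lower in mutants (34.8% on average) than in wild type (38.6%), while Igfbp4 (20.4% and 14.9%) and Igfbpl1 (11.2% and 7.44%) are higher in mutants.

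The start codons of Igfbp3, Igfbp4, Igfbp5 and Igfbpl1, whose leader shares differed by the most percentage points, and both starts of Igf2 are shown with 9 bases before and 6 after, 5′ to 3′ on the coding strand, with the ATG in capitals. They are read from GENCODE vM21 transcripts, and coordinates are those of the ATG in mm10.
Igfbp3 (chr11:7213788-7213790, minus strand): cccggcgccATGcatccc
Igfbp5 (chr1:72874137-72874139, minus strand): tccgagaaaATGgtgatc
Igfbp4 (chr11:99041497-99041499, plus strand): gtcctcgccATGctgccc
Igfbpl1 (chr4:45826791-45826793, minus strand): gagccggccATGccgcgt
Igf2, long leader (chr7:142658388-142658390, minus strand): agcagggagATGggcggc
Igf2, short leader (chr7:142655808-142655810, minus strand): caggtaccaATGgggatc
Igf2 is annotated with several leaders and these starts. The transcript used (ENSMUST00000121128.7) has the leader of 1099 bases and begins at the upstream ATG, while ENSMUST00000000033.11 has a leader of 115 bases.

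The long and the short Igf2 leader differed in footprints per RNA. The long leader had 708, 385 and 417 RNA counts in mutants and 360, 467 and 356 in wild type, against 408, 434 and 406 footprints in mutants and 1302, 381 and 719 in wild type. Its ratio of footprint CPM to RNA CPM was 0.683, 0.881 and 0.659 in mutant pools and 0.526, 0.617 and 0.445 in wild-type pools. The ratio of the short leader was 4.58, 6.52 and 5.20 in mutant pools and 4.06, 5.15 and 4.23 in wild-type pools. The long leader therefore had fewer footprints per RNA than the short leader in every pool. Reads that cross the start codon were counted in both leaders, and their part in these ratios was not tested. The final 85 bases of the short leader also belong to another annotated leader. Ratios of the long leader were higher in every mutant pool, and those of the short leader overlapped. No test across genes was made of these ratios and no share over all genes was taken, so nothing is read from the difference between genotypes.

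Markers of other cells moved with several of these genes. In bulk tissue, fewer cells of a type and less RNA per cell cannot be told apart. Summed pan-neuronal markers were 3725, 4483 and 3869 CPM in mutant RNA, against 4778, 4900 and 4859 CPM in wild type. All 9 log2 differences in RNA were negative, with a median of -0.23, against 0.01 over all genes tested. Footprints of these markers were 6709 to 7894 CPM in mutants and 8218 to 8942 CPM in wild type. This is the direction of Igfbp5 and Igfbpl1, and its part in their values was not tested. Summed mesenchyme markers in footprints were 1973, 1360 and 1249 CPM in mutants and 1087, 1093 and 1266 CPM in wild type, with mutant pool 1 highest as for Igf1, Igf2, Igf2r, Igfbp2, Igfbp3 and Igfbp4. In RNA they were 971, 663 and 724 CPM in mutants and 843, 560 and 962 CPM in wild type. Wild-type pool 2 was the lowest in mesenchyme RNA and also in Igf2 RNA. Roof plate markers, all 4 with positive differences, were 72.9 to 118 CPM in mutant RNA and 46.8 to 58.8 CPM in wild-type RNA. No pan-neuronal, roof plate or mesenchyme marker passed the edgeR test in either assay. The part of roof plate and mesenchyme in the values of the family was not tested.

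**Figure D5:**
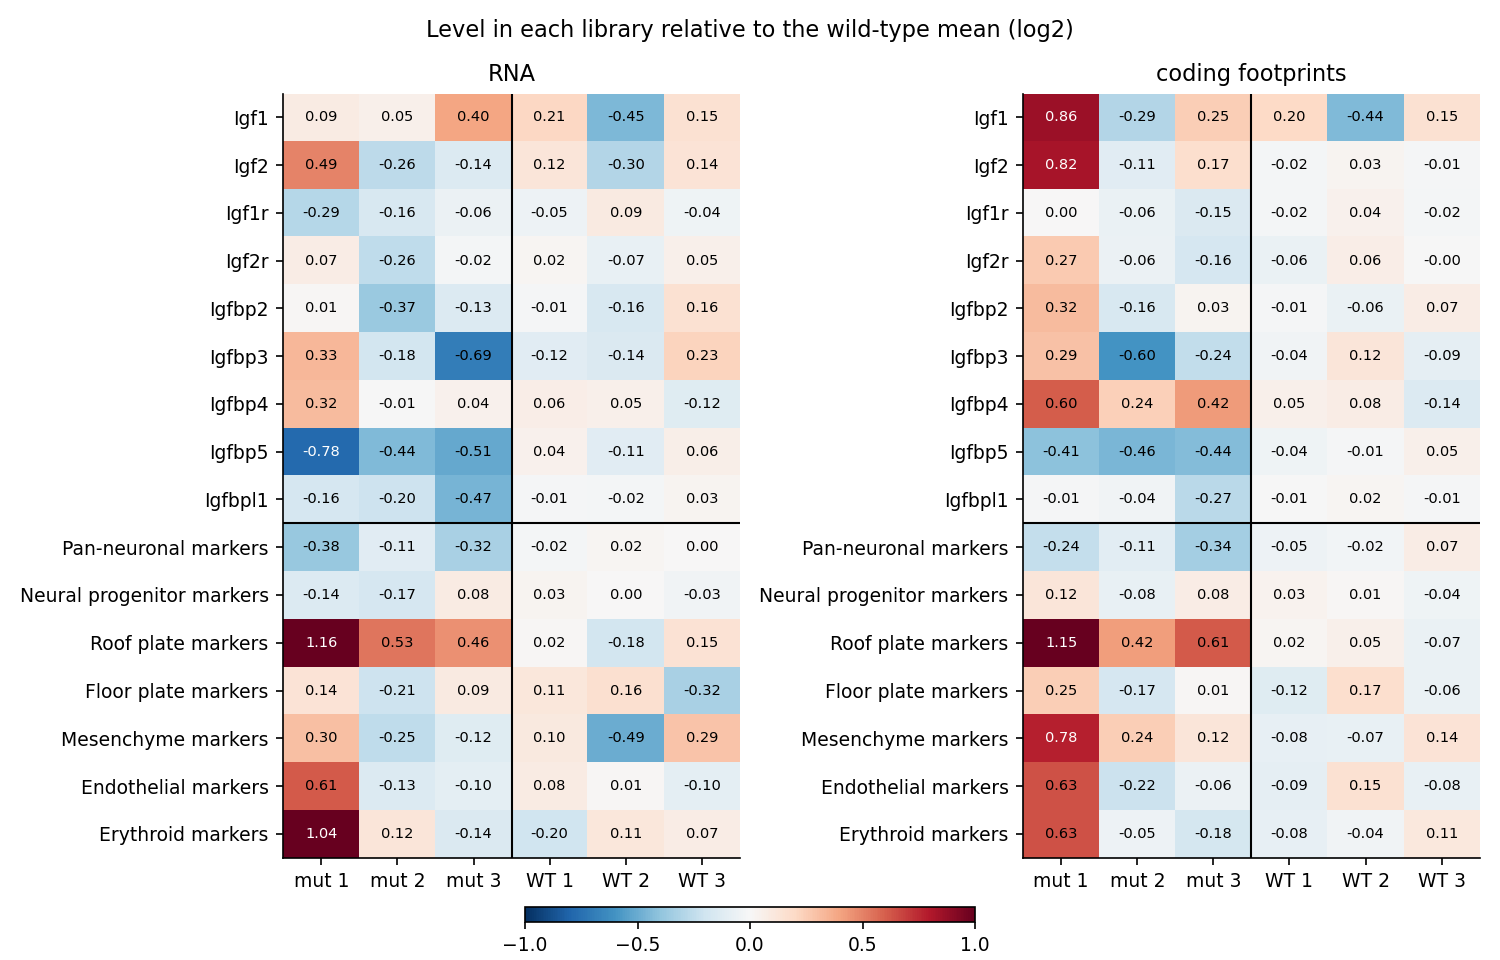
Log2 of each library's CPM over the wild-type mean for the 9 genes (upper rows) and for summed marker lists (lower rows), in RNA on the left and coding footprints on the right, with mutant pools left of wild-type pools. Igf2 and the mesenchyme and endothelial sums are highest in mutant pool 1 in both assays, and Igfbp5 and the pan-neuronal sum are negative in all 3 mutant pools.

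Genes most like each family member were ranked by Pearson correlation of log2 CPM, centred within each assay, over 12 libraries and 10651 genes. The ranking is a description, since RNA and footprint libraries share pools. Values were not centred within genotype, so a shared difference between genotypes enters the correlations. For Igfbp5 the footprints on which the family was selected enter as well. The genes most like Igfbp5 were the imprinted gene Ndn (r = 0.96), Hoxc8 (0.95), a homeobox gene of trunk position, and Mapt (0.95), which encodes the neuronal microtubule protein tau. For Igfbpl1 they were Sox4 (0.95), a transcription factor of differentiating neurons, Olfm2 (0.94) and the neuronal tubulin gene Tubb3 (0.93). For Igfbp4 they were the ribosomal protein gene Rpl18 (0.95), Wdr18 (0.95) and Nsun5 (0.95), which modifies ribosomal RNA. For Igf2 they were Cnn2 (0.98), an actin-binding calponin, Nfatc4 (0.98) and the collagen gene Col26a1 (0.97). For Igfbp2 they were the integrin gene Itgb3 (0.95), Tmem43 (0.94) and Iffo2 (0.94), and for Igf2r they were Vhl (0.91), the basement membrane collagen gene Col4a2 (0.91) and Usp19 (0.91). For Igf1r they were Sec16a (0.95), Glg1 (0.95) and Dpysl2 (0.93). The scarce genes had Map10 (0.91), Cited2 (0.89) and Itpkb (0.87) for Igfbp3, and Aldh7a1 (0.92), Parm1 (0.92) and Prep (0.91) for Igf1.

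Of the wider pathway, only the imprinted gene Ndn passed in RNA and no listed gene passed in footprints, where 0.388% and 0.253% of genes tested passed. Ndn, a growth suppressor of postmitotic neurons, had 256 ± 23.7 CPM in mutants and 341 ± 18.1 CPM in wild type (-0.41 ± 0.08 on the log2 scale, edgeR adjusted p = 0.0447). In footprints it had 506 ± 27.1 CPM in mutants and 608 ± 15.4 CPM in wild type and did not pass (-0.27 ± 0.07, edgeR adjusted p = 0.0957). The other imprinted growth genes of smallest p in RNA were Dlk1 (-0.35 ± 0.07, edgeR adjusted p = 0.0564), which encodes a Notch-ligand-like protein, and the cell cycle inhibitor Cdkn1c (-0.18 ± 0.07). The list of 10 imprinted genes had a median of 0.01 in RNA and 0.06 in footprints, against 0.01 in each assay over all genes tested. 

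Of 37 genes of insulin and IGF signal transduction, 36 could be tested in RNA and 37 in footprints, and none passed. Medians were -0.07 in RNA and -0.07 in footprints, with 10 of 36 and 14 of 37 log2 differences positive. Insr, the insulin receptor gene, had 133 ± 7.20 CPM in mutant RNA and 164 ± 4.86 CPM in wild-type RNA (-0.30 ± 0.06, edgeR adjusted p = 0.0587). Rptor of the mTOR complex (-0.17 ± 0.06) and the PI3 kinase regulatory subunit gene Pik3r3 (-0.20 ± 0.09) followed. In footprints the smallest p belonged to PI3 kinase subunits. Pik3r3 had 136 ± 11.2 CPM in mutants and 175 ± 5.50 CPM in wild type (-0.36 ± 0.08, edgeR adjusted p = 0.0758), and Pik3r1 had 55.0 ± 8.71 CPM in mutants and 78.3 ± 4.75 CPM in wild type (-0.51 ± 0.11, edgeR adjusted p = 0.0795). The catalytic subunit gene Pik3ca stood at -0.39 ± 0.12 (edgeR adjusted p = 0.117). In footprints, 14 of these 37 genes had an unadjusted edgeR p under 0.05, a larger share than the 3067 of all 13423 genes tested. In RNA 3 of 36 did, a smaller share than the 2348 of 13406 genes tested. In footprints per mRNA 4 of 37 did, against 1367 of 13877. The list was not tested as a set.

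The 8 genes that bind or regulate Igf2 mRNA leaned higher without passing, with medians of 0.19 in RNA and 0.30 in footprints and 7 of 8 positive in each. The IGF2 mRNA-binding protein gene Igf2bp1 had 234 ± 20.0 CPM in mutant RNA and 201 ± 15.5 CPM in wild-type RNA (0.22 ± 0.08, edgeR adjusted p = 0.176). Hmga2, a chromatin protein gene of embryonic tissue, stood at 0.35 ± 0.15. The RNA-binding protein genes Lin28a (0.93 ± 0.29, edgeR adjusted p = 0.124) and Lin28b (0.80 ± 0.22, edgeR adjusted p = 0.110) and the zinc finger factor Plagl1 (0.29 ± 0.09, edgeR adjusted p = 0.127) had the smallest p in footprints. Genes that set the availability of IGFs were low, with 6 of 9 tested and none passing. In footprints Stc2, which encodes an inhibitor of pappalysin, had 3.35 ± 0.343 CPM in mutants and 2.26 ± 0.193 CPM in wild type (0.58 ± 0.18, edgeR adjusted p = 0.122). The protease genes Pappa2 (-0.27 ± 0.17) and Htra1 (0.29 ± 0.28) followed. None of the 11 genes of mannose 6-phosphate sorting and lysosomal hydrolysis passed, with a median of 0.00 in RNA and 0.01 in footprints. The cathepsin genes Ctsl (0.25 ± 0.08) and Ctsd (-0.14 ± 0.07) and the hexosaminidase gene Hexa (-0.20 ± 0.08) had the smallest p in RNA.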

How the data were processed

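The authors deposited read counts, lane by lane, for each transcript and for its leader, coding part and 3′ untranslated region. Per the submitters' processing notes, cutadapt, STAR and bedtools were used with mm10; their versions, the strand setting and the rule for multiply matching reads are given by no source used here. Of 122941 transcript identifiers, 148 matched no GENCODE vM21 gene. For each gene the transcript with the highest coding total was kept, and lanes and runs were summed. In 4 lanes of mutant footprint pool 1, counts were present on 3 chromosomes at most, and these lanes were left out.

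Tests used R 4.3.3, edgeR 4.0.16 and limma 3.58.1, with DESeq2 1.42.0 as an alternative. Libraries were scaled by TMM, low genes removed with filterByExpr (at least 10 counts, total of 15), and p-values adjusted by Benjamini-Hochberg across the genes tested, with a threshold of 0.05. Standard errors were calculated back from the F statistic, and scripts were tested on simulated data. Python 3.11.15 with pandas 2.3.3, NumPy 2.4.6, Matplotlib 3.10.9 and SciPy 1.17.1 made the tables and plots. CPM were scaled within each assay, and ratios per pool had 0.5 CPM added. Named are the 9 family genes, Eif3c, and up to 3 genes of smallest p per list beside those past the threshold. Likeness used genes with a mean of at least 5 CPM in both assays. The family, the lists and the tests were chosen with earlier results of these data known. Per the labels' protocols, a pool's cells were split between RNA and footprints, and their deviations from group means correlated at 0.32 to 0.52 in wild type and 0.38 to 0.64 in mutants. Alternatives were another scaling, other tools, no filter, blocks, other transcripts, whole coding sequences, single runs, all lanes, and leaving out each pool.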

Additional observations from a re-analysis of the deposited data

How the results depend on the processing

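The number of family genes past the threshold in RNA was 1 (of 52 genes called in all), and it was 2 with DESeq2 (of 408), 0 with GC offsets (of 2), an alternative added after seeing the data, and 0 to 2 when a pool was left out, the 2 being without mutant pool 2 (of 1528). In footprints it was 1 (of 34), and it was 2 with DESeq2 (of 840) and 0 with all lanes summed (of 9). It was 0 to 3 when a pool was left out, the 3 being without mutant pool 2 (of 2333). The 1 in footprints is the selected Igfbp5, so nothing is read from it. The 1 in RNA is also Igfbp5, from the same cells. Beside Igfbp5, Igfbp4 passed in footprints with DESeq2, and Igf2 and Igfbp4 passed without mutant pool 2. With the replicate number as a block, which the labels do not say pairs the genotypes, the number of family genes was 0 in footprints (of 38) and 1 in RNA (of 196). Same-numbered mutant and wild-type pools correlated at 0.07 to 0.17 in RNA and -0.15 to 0.02 in footprints. Different-numbered pools correlated at -0.15 to -0.02 in RNA and -0.15 to 0.23 in footprints. In RNA every same-numbered pair lay above every different-numbered pair, and in footprints this was not so. Whether a number shared by both genotypes marks a shared litter or batch is not stated. In efficiency the count stayed at 0 under every alternative run, and in wild-type footprints per mRNA it was 6 to 8. The number of genes whose leader shares did not overlap was 5, 2 with the second run alone (Igfbp4 and Igfbpl1), 4 with all lanes and 5 to 7 when a pool was left out.

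Some log2 differences changed sign, none of them past the threshold in the mutant comparison. With the second run alone, RNA differences were -0.041 for Igf1 and 0.14 for Igfbp3. With all lanes summed Igfbp3 stood at 0.41 in footprints and 0.52 in efficiency. With GC offsets Igfbp2 stood at -0.13 in footprints, and in efficiency Igfbp2 at -0.0030, Igfbp5 at -0.017 and Igfbpl1 at -0.063. Igf1 efficiency was -0.038 with limma-voom, and Igf1r in wild type was -0.013 with whole coding sequences. Leaving out a pool gave RNA ranges of -0.0063 to 0.35 for Igf1, -0.18 to 0.22 for Igf2, -0.13 to 0.023 for Igf2r and -0.40 to 0.12 for Igfbp3. The footprint ranges were -0.025 to 0.51 for Igf1, -0.11 to 0.11 for Igf2r, -0.064 to 0.17 for Igfbp2 and -0.40 to 0.036 for Igfbp3, and the efficiency ranges -0.31 to 0.26 for Igf1 and -0.19 to 0.10 for Igfbp3. The cause of these shifts was not tested. The first run alone could not be used for footprints, because the complete lanes of mutant pool 1 are all from the second run.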
